A study of Ulva lactuca with 7 samples.

Results

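In thalli of the green seaweed Ulva lactuca, 200 of 90206 assembled genes kept a level near that of the submerged control through drying and were higher in every library taken 1 h after return to seawater. They were chosen from measured values. Each assembled gene was represented by its transcript with the highest summed read count, and 10724 genes with at least 50 counts in the control and at least 35% GC were examined. Levels are given as CPM, the read count per 1000000 counts of the library. A member had to lie above 0.5 and below 2 times the control in all 3 desiccated libraries, the dry window. It also had to be at least 1.5-fold above both the control and the desiccated library of the same period in all 3 resubmerged libraries. The 200 genes that met these conditions are 1.86% of the genes examined and 5.33% of the 3751 genes in the dry window, and a limit of 200 members removed none. The conditions used all 7 libraries, so levels and ratios of the members are a description and no test was made on them.

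The series asks how transcript levels change as thalli dry and return to water. Thalli that had been collected and kept in the laboratory gave 7 libraries, 1 per condition. The control stayed submerged, 3 sets of thalli were dried for 24, 36 or 72 h at 20% moisture, and 3 more spent 1 h in autoclaved seawater once those periods had ended. The labels do not say how many thalli went into a library. Without replicate libraries no ratio can be set against the spread between thalli.

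Ulva grows in the intertidal zone as a blade of few cell layers, which loses water at low tide and takes it up again when the tide returns. Rehydration is known in intertidal algae as a stress of its own: photosynthesis and respiration resume, reactive oxygen species form and damaged proteins and membranes are replaced. Some transcripts of desiccation-tolerant plants are known to change only in this phase and not during drying. The files pair no transcript with a gene name, product or organism, so the roles of the members are not given here, and the labelled species and tissue could not be checked against marker genes. Members are named by their assembly identifiers, and no sequences are shown. In whole thalli a change in the make-up of cells and a change of RNA per cell cannot be told apart.

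Total counts ran from 63782317 to 97270080 per library, so that the minimum of 50 counts in the control was 0.777 CPM there. Relative to the control, the median gene examined stood at a log2 CPM ratio of -0.43, -0.40 and -0.24 after 24, 36 and 72 h of desiccation, and at -0.37, -0.23 and -0.06 after resubmergence from these periods. The library desiccated for 72 h held 1710 transcripts of its own (at least 50 counts and 20 times the CPM of any other library) and the library resubmerged after 36 h held 93, while the others held 4 to 30. None of these transcripts was a member, which the dry window fixes in advance for those of the control and the desiccated libraries. Without the 72 h desiccated library 457 genes met the remaining conditions, and without the library resubmerged after 36 h 296 did, since fewer conditions applied.

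The median member had 3.50 CPM in the control. It had 2.95, 2.94 and 3.44 CPM after 24, 36 and 72 h of desiccation and 9.96, 11.4 and 10.4 CPM after resubmergence from these periods. The median level was thus similar in the control and the desiccated libraries, a likeness that the dry window sets in advance. Under total counts it was about the same in the 3 resubmerged libraries, with median log2 ratios to the control of 1.41, 1.55 and 1.49. With trimmed-mean (TMM) factors in place of total counts these were 1.38, 1.31 and 1.05. The median ratio of a resubmerged library to the control was 2.66, 2.93 and 2.81 after 24, 36 and 72 h, and the median ratio to the desiccated library of the same period was 2.86, 2.95 and 2.47. The shares of all genes examined at or above 1.5-fold in these comparisons were 24.4%, 25.1% and 27.5% against the control and 34.0%, 40.5% and 29.0% against the desiccated libraries. All members passed them by the way they were chosen.

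Together the members took 0.175% of all counts in the control (Wilson 95% interval 0.174 to 0.176). When dry for 24, 36 and 72 h they took 0.164%, 0.175% and 0.208%, and their shares were 0.486%, 0.538% and 0.5003% after resubmergence. The 5 most counted members held 34.1% of the members' counts in the control and 30.0% to 32.9% in the resubmerged libraries. The mean over the resubmerged libraries ran from 1.70 to 606 CPM, with a median of 10.9 CPM and 17 members at 50 CPM or more.

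The smallest of the 6 resubmerged ratios had a median of 1.85 among the members. It was at least 2 in 70 members, at least 3 in 17 and at least 4 in 5. Those with 2 or more are 0.653% of the genes examined. The ratio to the 72 h desiccated library was the smallest in 52 members and the ratio to the 36 h one in 43, more often than any of the other 4 comparisons. Exact (Clopper-Pearson) 95% counting intervals lay above 1 for all 6 ratios in all 200 members and above 1.5 in 132, while in 68 at least 1 interval reached below 1.5. The rule had required each of these ratios to be at least 1.5, so intervals above 1 follow largely from the choice of members. These intervals cover counting error at most, because 1 library per condition gives no spread between thalli. They may be too narrow even for that. No molecular identifiers tell separate molecules from copies of one, and a read may count on several isoforms.

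The member whose smallest ratio was the largest was c29288_g2_i1 (2102 nt, 52.0% GC). It had 0.980 CPM in the control, 1.31, 1.502 and 0.690 CPM after 24, 36 and 72 h of desiccation, and 41.2, 20.1 and 58.7 CPM after resubmergence. The 4 low libraries and the 3 high ones did not overlap, and counts went from 44 to 134 in the former to 1709 to 4615 in the latter. After 72 h of drying the resubmerged library was 85.1-fold above the desiccated one (95% counting interval 63.3 to 117) and 59.95-fold above the control (46.8 to 78.1). After 24 h these ratios were 31.6 (26.5 to 38.005) and 42.1 (32.8 to 54.9). After 36 h they were lower, 13.4 (11.2 to 16.1) and 20.5 (15.95 to 26.8).

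Next in rank was c34174_g1_i1 (10768 nt, 52.4% GC), the only transcript of its gene. It had 11.5 CPM in the control, 6.91, 11.2 and 7.89 CPM in the desiccated libraries and 115, 59.4 and 153 CPM in the resubmerged ones, in the order 24, 36 and 72 h. In CPM its order across the resubmerged libraries was that of c29288_g2_i1, highest after 72 h and lowest after 36 h. For c34174_g1_i1 the order of 24 and 72 h depends on the scaling. The ratio to the desiccated library was 16.7 (95% counting interval 15.4 to 18.1), 5.30 (4.95 to 5.68) and 19.4 (17.8 to 21.3).

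The highest mean CPM after resubmergence was that of c34557_g1_i4 (1762 nt, 52.1% GC). It had 201 CPM in the control, 277, 302 and 276 CPM after desiccation and 553, 647 and 619 CPM after resubmergence. All 3 desiccated libraries were above the control, within the dry window, and all 3 resubmerged ones were higher again. Its ratios to the desiccated library were 1.999 (95% counting interval 1.97 to 2.03), 2.14 (2.11 to 2.17) and 2.24 (2.21 to 2.28). The next by this measure, c33714_g1_i2 (9108 nt, 60.7% GC), had 176 CPM in the control, 137, 177 and 195 CPM when dry and 325, 529.9 and 367 CPM in water. Its highest level was in the library resubmerged after 36 h, 2.996-fold above the desiccated one (2.94 to 3.05). It is 1 of 4 members of 1 assembly component, the largest group of members with a shared component number. In all, 16 members fell into 7 shared components, whose genes may share reads.

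**Figure D1:**
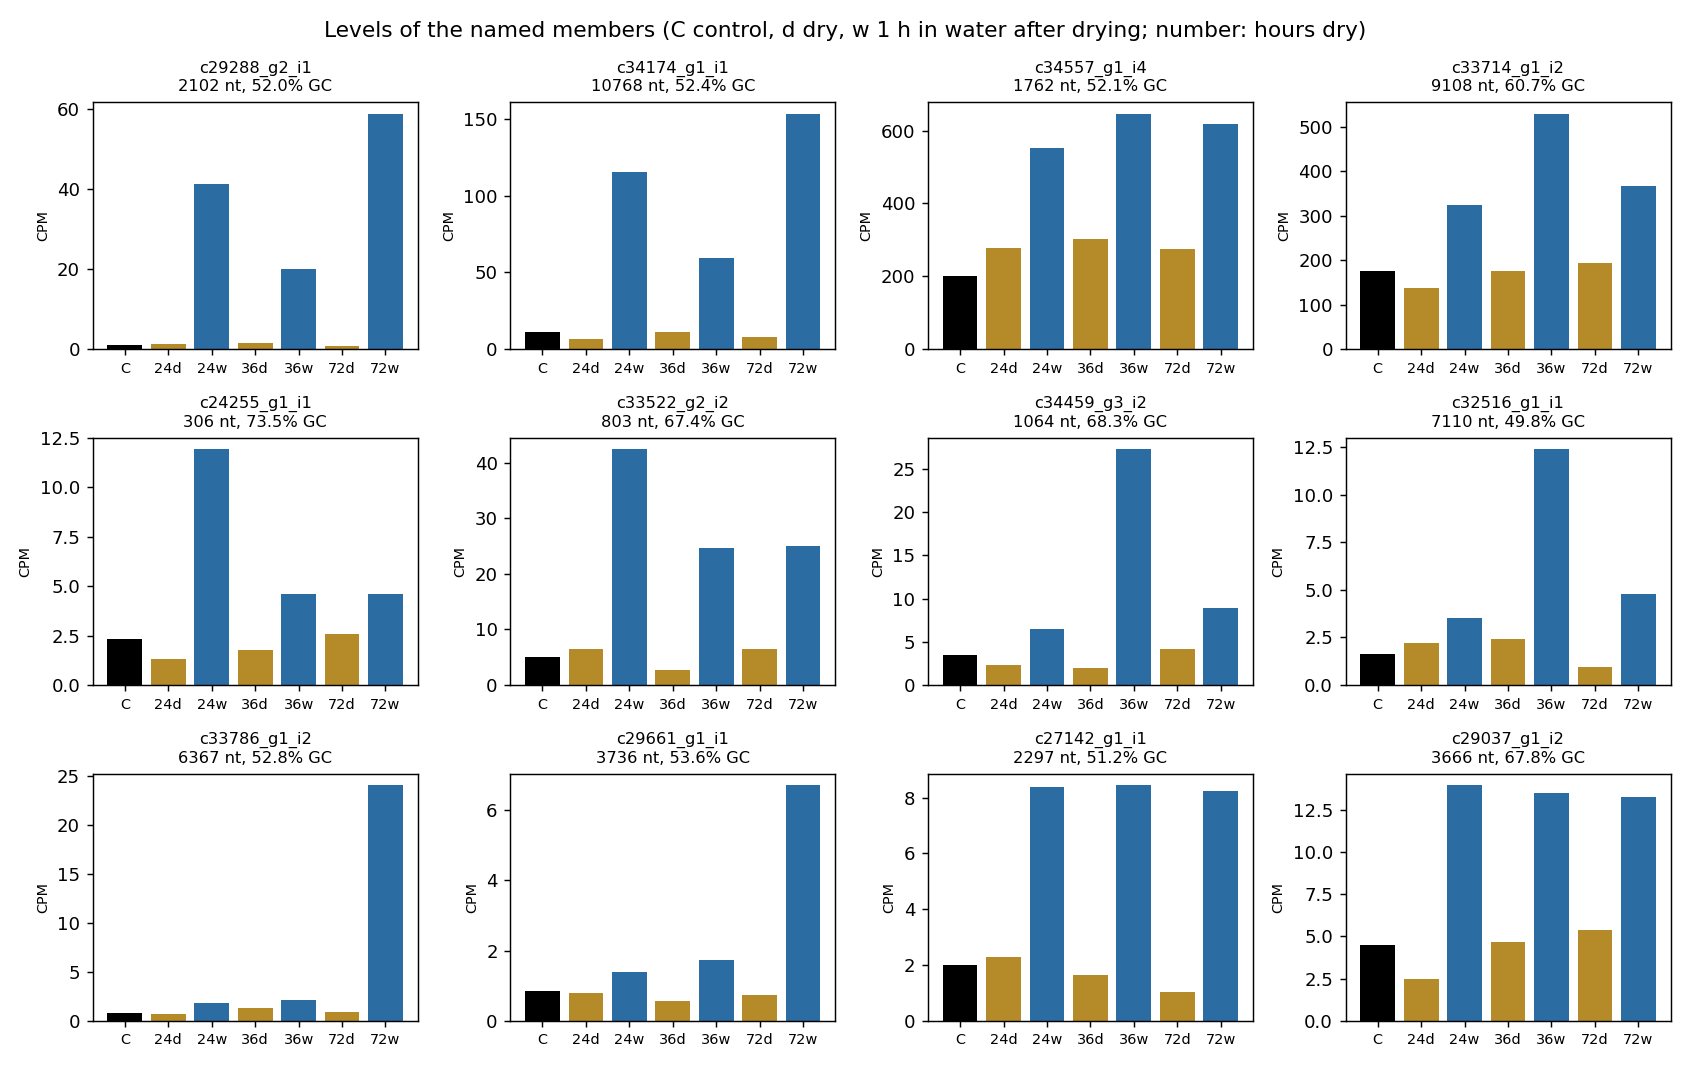
CPM of 12 named members (vertical axis, linear, from 0) in the control (C), the desiccated libraries (d) and the libraries resubmerged for 1 h (w) after 24, 36 and 72 h of drying, 1 library per bar. In each panel the 3 blue bars stand above the other 4, by a wide margin in c29288_g2_i1 (20.1 to 58.7 CPM against 0.690 to 1.502 CPM) and by less in c34557_g1_i4 (553 to 647 CPM against 201 to 302 CPM).

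The highest of the 3 resubmerged levels was a median of 1.57 times the lowest, within 1.5 times in 87 members, at least 2 times in 45 and at least 3 times in 16. The corresponding median was 2.08 over all genes examined and 1.72 over the genes in the dry window. Each resubmerged level of a member has to lie above the control and above the desiccated library of its own period. The choice of members thus leaves out low levels but sets no upper bound, so the spread is not independent of it.

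The most even member was c27142_g1_i1 (2297 nt, 51.2% GC), with 8.39, 8.44 and 8.25 CPM in the libraries resubmerged after 24, 36 and 72 h. Its other levels were 2.01 CPM in the control and 2.28, 1.64 and 1.03 CPM when dry, falling with the length of drying. Similarly, c29037_g1_i2 (3666 nt, 67.8% GC) had 13.96, 13.5 and 13.2 CPM after resubmergence, 4.51 CPM in the control and 2.46, 4.66 and 5.36 CPM when dry. Its dry levels went up with the length of drying, in the opposite order to those of c27142_g1_i1.

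The library resubmerged after 24 h held the highest level of 48 members, 24.0% beside 23.2% of all genes examined. Of these, c24255_g1_i1 (306 nt, 73.5% GC) stood out most, with 11.9 CPM there against 4.598 and 4.594 CPM after 36 and 72 h. It had 2.32 CPM in the control and 1.33, 1.75 and 2.59 CPM when dry. The other was c33522_g2_i2 (803 nt, 67.4% GC), with 42.4 CPM after 24 h against 24.6 and 24.9 CPM, and 2.66 to 6.56 CPM in the control and desiccated libraries.

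The library resubmerged after 36 h held the highest level of 82 members, 41.0% beside 34.1% of all genes examined and 22.1% of the dry window. Transcript c34459_g3_i2 (1064 nt, 68.3% GC) had 27.3 CPM there, 6.45 and 8.87 CPM after 24 and 72 h, and 1.97 to 4.17 CPM in the other 4 libraries. Transcript c32516_g1_i1 (7110 nt, 49.8% GC) had 12.4 CPM there against 3.50 and 4.77 CPM, and 0.941 to 2.40 CPM in the other 4. In both, the 36 h level was more than 2-fold above the other resubmerged levels.

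The library resubmerged after 72 h held the highest level of 70 members, 35% beside 42.7% of all genes examined and 55.4% of the dry window. Transcript c33786_g1_i2 (6367 nt, 52.8% GC) had 24.1 CPM there, against 1.84 and 2.08 CPM after 24 and 36 h, 0.824 CPM in the control and 0.689, 1.36 and 0.878 CPM when dry. Its 27.4-fold ratio to the 72 h desiccated library (95% counting interval 21.0 to 36.4) compares with 2.67 (1.998 to 3.603) at 24 h and 1.53 (1.21 to 1.95) at 36 h. Transcript c29661_g1_i1 (3736 nt, 53.6% GC) had 6.71 CPM against 1.38 and 1.74 CPM, and 0.561 to 0.840 CPM in the other 4 libraries. Which resubmerged library was highest depended on scaling. With trimmed-mean (TMM) factors in place of total counts, 85, 73 and 42 members were highest after 24, 36 and 72 h, and with the total of the transcripts kept per gene 46, 62 and 92 were.

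The rule sets no order between the resubmerged libraries. A level at least 2-fold higher after 36 h than after 24 h was found in 12 members and a 2-fold lower one in 6, beside 22.7% and 13.3% of all genes examined. For 72 h against 24 h the counts were 12 higher and 9 lower, beside 22.1% and 9.54%, and for 72 h against 36 h 18 higher and 16 lower, beside 16.1% and 13.4%. In percent of members these counts are 6%, 3%, 6%, 4.5%, 9% and 8%, all below the share over all genes. Among the genes in the dry window the shares were 8.10%, 8.98%, 12.5%, 3.39%, 15.1% and 4%, so that the members' share was above that of the window for lower levels after 72 h, against 24 h and against 36 h, and below it in the other 4 counts. With TMM factors the members lower after 72 h than after 24 h became 25 and those higher became 6.

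Members of at least 15000 nt, a group seen in the data, formed a block with 1 pattern. These 5 transcripts had lengths from 17164 to 21643 nt and GC contents from 62.4% to 63.8%, and 25 genes examined had transcripts of that length. The first of them in rank, c32473_g3_i1 (21366 nt, 62.4% GC), had 1.01 CPM in the control, 0.761, 0.751 and 0.925 CPM when dry and 11.2, 16.3 and 3.56 CPM after resubmergence from 24, 36 and 72 h. The last, c34683_g3_i1 (21643 nt, 63.7% GC), had 2.83 CPM in the control, 1.79, 1.48 and 2.71 CPM when dry and 21.4, 27.6 and 6.69 CPM after resubmergence. In all 5 the level after 36 h was the highest and that after 72 h the lowest of the resubmerged libraries, by 3.86 to 5.05-fold. With these 5 included, the level after 36 h was the highest in 10 of the 25 genes examined (40.0%). In the dry window it was the highest in 6 of 14 such genes (42.9%). Transcripts c32779_g1_i2 and c32779_g3_i2 among the 5 share an assembly component and may share reads. The ratio to the control was 7.55 to 11.1 after 24 h, 9.77 to 16.1 after 36 h and 2.37 to 3.53 after 72 h. Their counts in the control were low, 65 to 182, and per length they stood at 0.127 to 0.351 FPKM (fragments scaled to transcript length and library total) there, against a median of 3.90 FPKM over all members.

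**Figure D2:**
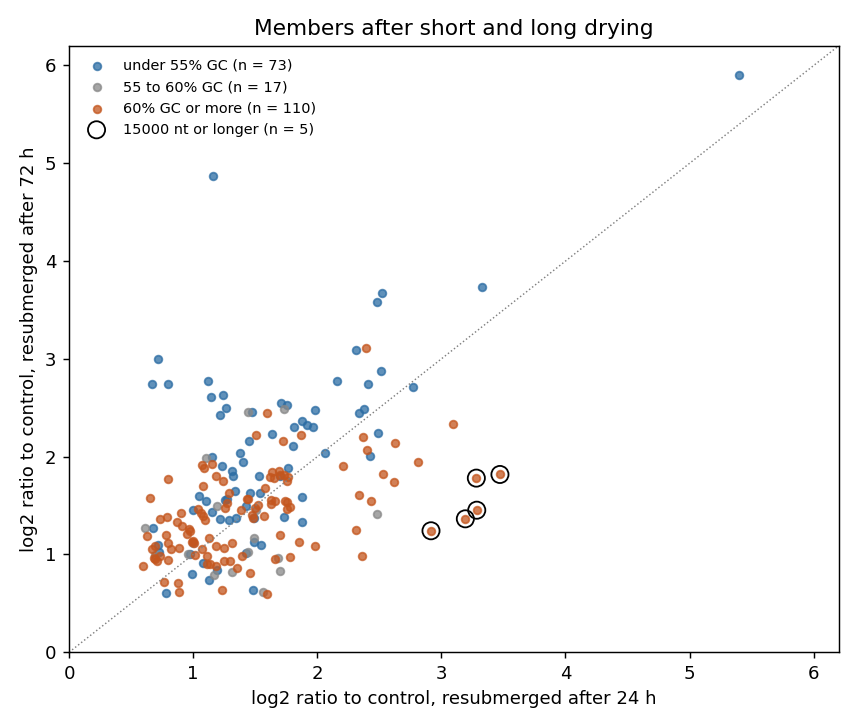
Log2 ratio to the control in the library resubmerged after 24 h (horizontal axis) and after 72 h (vertical axis) for the 200 members, 1 point each, coloured by GC content; the dotted line marks equal ratios and circles mark the 5 transcripts of 15000 nt or more. The circled points lie together well below the line, at 7.55 to 11.1-fold after 24 h and 2.37 to 3.53-fold after 72 h.

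Most members lay from 50 to 55% GC or at 60% or more. The rule used GC only as a minimum of 35%, and no member lay under 45.8%. There were 7 members under 50% GC, 66 from 50 to 55%, 17 from 55 to 60%, 49 from 60 to 65% and 61 at 65% or more. These are 1.90%, 4.90%, 1.66%, 6.36% and 26.3% of the genes in the dry window in each range. The median GC was 61.1% among members, 57.1% among all genes examined and 55.8% among those in the dry window. At 65% GC or more, 30.5% of the members stood beside 9.49% of the genes examined. From 60 to 65% the shares were 24.5% and 24.1%, and from 50 to 55% they were 33.0% and 29.7%. The 4.90% of the window from 50 to 55% GC was below the 5.33% over the whole window.

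Over all genes examined, those of high GC had higher median ratios in the resubmerged libraries. The median log2 ratio to the control of the genes examined at 65% GC or more was -0.92, -1.05 and -0.29 in thalli dried for 24, 36 and 72 h and 0.35, 0.62 and 0.41 after resubmergence. For those from 50 to 55% GC it was -0.19, -0.12 and -0.27 when dry and -0.66, -0.59 and -0.17 after resubmergence. When the trend on GC was removed from each library, 108 of the 200 members still met the rule, and the members with all 6 ratios above 1 went from 200 to 159. All 66 members from 50 to 55% GC kept 6 ratios above 1, and 69 of the 110 at 60% or more did. The removal itself shifts levels by GC. After it the median log2 ratios to the control in the resubmerged libraries were 1.71, 1.89 and 2.13 for the 66, up from 1.45, 1.57 and 2.02. For the 110 they were 0.85, 0.76 and 1.02, down from 1.33, 1.52 and 1.39. The 2 counts are thus no measure of how robust either range is. The genes that met the rule after this removal numbered 169 with a median GC of 52.4%, 112 of them from 50 to 55% GC and 30 at 60% or more.

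**Figure D3:**
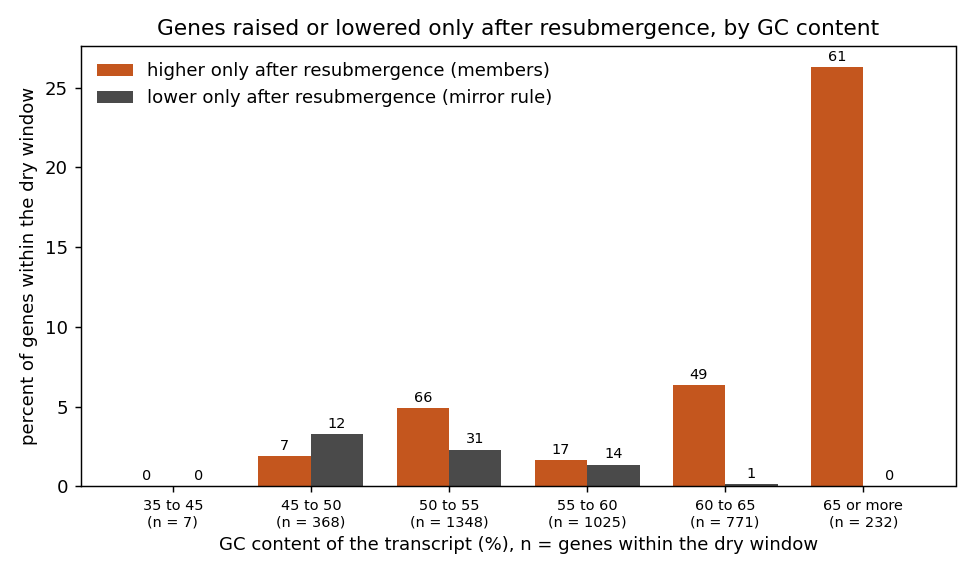
Share of the genes in the dry window (percent, vertical axis) that were higher only after resubmergence (orange, the members) or lower only after resubmergence (dark grey, the mirrored rule) by GC content of the transcript; numbers above the bars are genes. Members took 26.3% of the window at 65% GC or more and 1.66% from 55 to 60%, and 4.90% from 50 to 55%.

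The members from 50 to 55% GC differed from those of 60% or more in several measures, a division made after the values were seen. Their median level was 1.23 CPM in the control and 4.01, 4.77 and 6.39 CPM after resubmergence from 24, 36 and 72 h. The 110 members of 60% or more had a median of 5.70 CPM in the control and 14.4, 17.1 and 15.5 CPM after resubmergence. Per length, the medians in the control were 1.21 and 6.44 FPKM. Of the 66, 39 had fewer than 100 counts in the control, and 20 of the 110 did. Among all genes examined in these ranges, 643 of 3189 and 482 of 3602 did.

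Of the 66 members from 50 to 55% GC, 50 were the only transcript of their gene (75.8%), beside 26.8% of all genes examined in this range (855 of 3189). Of the members of 60% or more, 16.4% were, beside 18.2% of all genes examined there. Genes from 50 to 55% GC with 1 transcript gave 50 members among 247 in the dry window (20.2%), and those with 2 or more gave 16 among 1101 (1.45%). The 247 had a median log2 ratio to the control of 0.13, 0.12 and 0.28 after resubmergence from 24, 36 and 72 h, and the 1101 of -0.67, -0.64 and -0.20. Members from 50 to 55% GC were long, with a median of 3778 nt against 2141 nt for all genes examined in that range.

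The order of the libraries differed between the 2 ranges as well, in the same direction as over all genes examined in each range. The lowest desiccated level was that of 72 h in 50 of the 66 members from 50 to 55% GC and in 8 of the 110 of 60% or more, 75.8% and 7.27% beside 43.6% and 12.4% of all genes examined in these ranges. The highest desiccated level was that of 72 h in 4 and 78, respectively, 6.06% and 70.9% beside 24.6% and 61.4%. Median log2 ratios to the control after 24, 36 and 72 h of desiccation were 0.07, 0.43 and -0.45 in the former and -0.29, -0.34 and 0.29 in the latter. With TMM factors the 72 h desiccated level was the lowest in 61 of 66 and 31 of 110, and with the GC trend removed in 36 and 30.

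After resubmergence the library of 72 h held the highest level in 39 of the 66 and in 24 of the 110. These are 59.1% and 21.8%, beside 58.9% and 27.2% of all genes examined in the 2 ranges. In the dry window the share at 60% GC or more was 31.5%. From 50 to 55% GC it was 63.2% for window genes with 1 transcript and 72.9% for those with 2 or more. The members' shares lay below those of the window in both ranges. Among the members the median log2 ratios to the control were 1.45, 1.57 and 2.02 from 50 to 55% GC and 1.33, 1.52 and 1.39 at 60% or more. Against the desiccated library of the same period they were 1.38, 1.22 and 2.35 in the former and 1.62, 1.68 and 1.09 in the latter. A level at least 2-fold higher after 72 h than after 36 h was found in 15 of the 66 and 1 of the 110, and a lower one in 3 and 11. Over all genes examined in the 2 ranges the higher level was found in 20.4% and 10.1% and the lower one in 7.65% and 17.5%. With TMM factors the 72 h library held the highest level in 27 of 66 and 10 of 110, and with the GC trend removed in 33 of 66 and 50 of 110. GC content, abundance and number of transcripts go together here, and their parts in these differences were not tested.

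**Figure D4:**
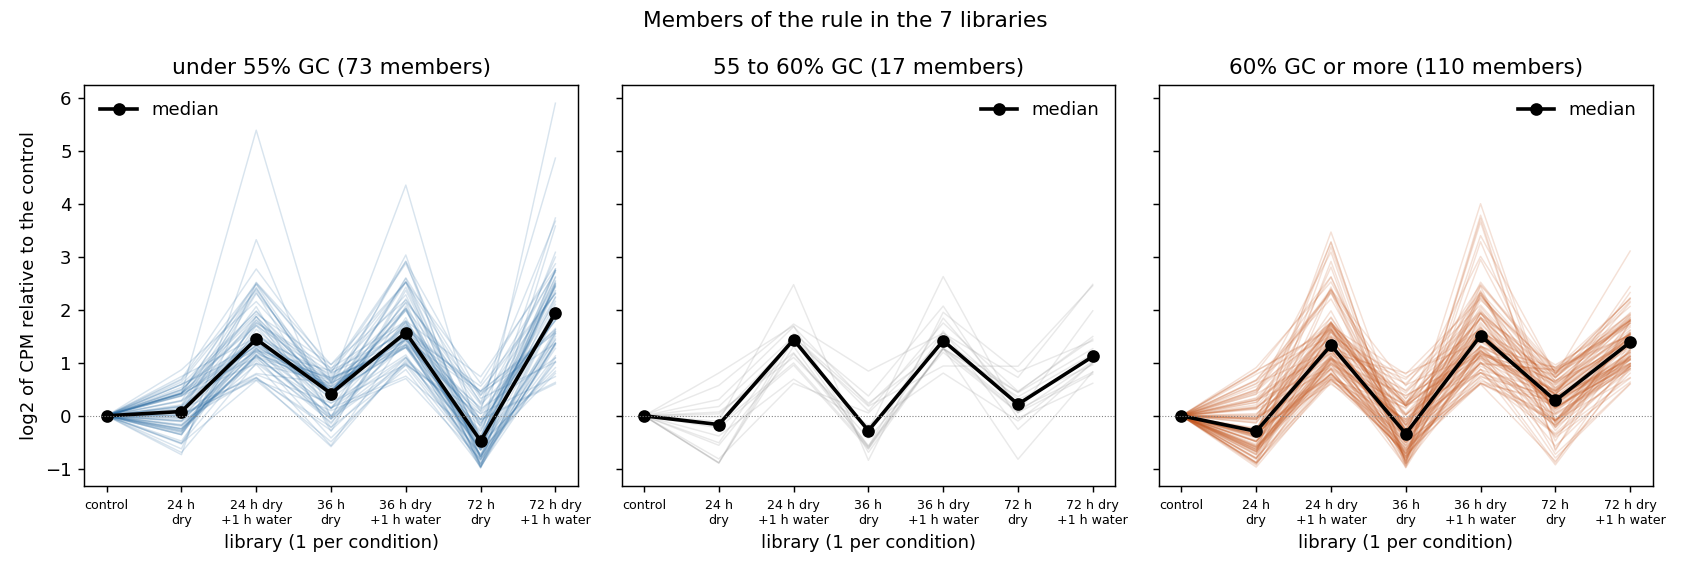
Log2 CPM relative to the control (vertical axis) in the 7 libraries (horizontal axis, each dry library followed by its resubmerged one) for members under 55% GC, from 55 to 60% and of 60% or more; thin lines are members and black points the median. In all 3 panels the median is higher in each resubmerged library than in the dry one before it, and the 72 h dry median lies below the control under 55% GC (-0.48) and above it at 60% or more (0.29).

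Within the dry window the members lay on both sides of the control. The desiccated level was above the control in 83 members after 24 h, in 97 after 36 h and in 111 after 72 h. These shares of 41.5%, 48.5% and 55.5% stand beside 39.3%, 43.3% and 47.5% of all genes in the dry window, which go the same way. The level went up at each step from 24 to 36 to 72 h in 52 members, 26.0% beside 24.4% of the window, and down at each step in 25, 12.5% beside 19.0%. The median ratio to the control was 0.930, 0.969 and 1.06, and the extremes were 0.504 and 1.96. Of 419 genes examined that were at least 1.5-fold higher in all 6 resubmerged comparisons, the other 219 left the dry window, 157 of the 419 with a desiccated level at or below 0.5 times the control, 69 with one at or above 2 times and 7 of these with both.

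The opposite pattern was rarer under this scaling. Genes in the dry window that were at or below 1/1.5 of both the control and the own desiccated library in all 3 resubmerged libraries numbered 58, or 0.541% of the genes examined and 1.55% of the window. Their median GC was 52.0% and their highest 60.3%, against 61.1% and 73.5% among the members. They took 0.0791% of counts in the control and 0.0401%, 0.0359% and 0.0412% after resubmergence. The order of the 2 counts depended on scaling: with TMM factors 107 genes were higher and 156 lower, and with DESeq2 size factors 93 were higher and 299 lower. These scalings moved the median log2 ratio to the control of all genes from -0.06 to -0.50 and -0.48 in the library resubmerged after 72 h. All 200 members kept 6 ratios above 1 under total counts, TMM factors, DESeq2 size factors, the total of the kept transcripts and FPKM. Each of these scalings changes a given ratio by the same factor in every gene, and members began at 1.5 or more. That result was therefore fixed by the choice of members and the size of the factors. The whole rule was met by 95 of the members with TMM factors and by 88 with DESeq2 size factors. Without the 72 h pair the counts were 535 and 601, without the 36 h pair 356 and 96, and without the 24 h pair 330 and 122.

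**Figure D5:**
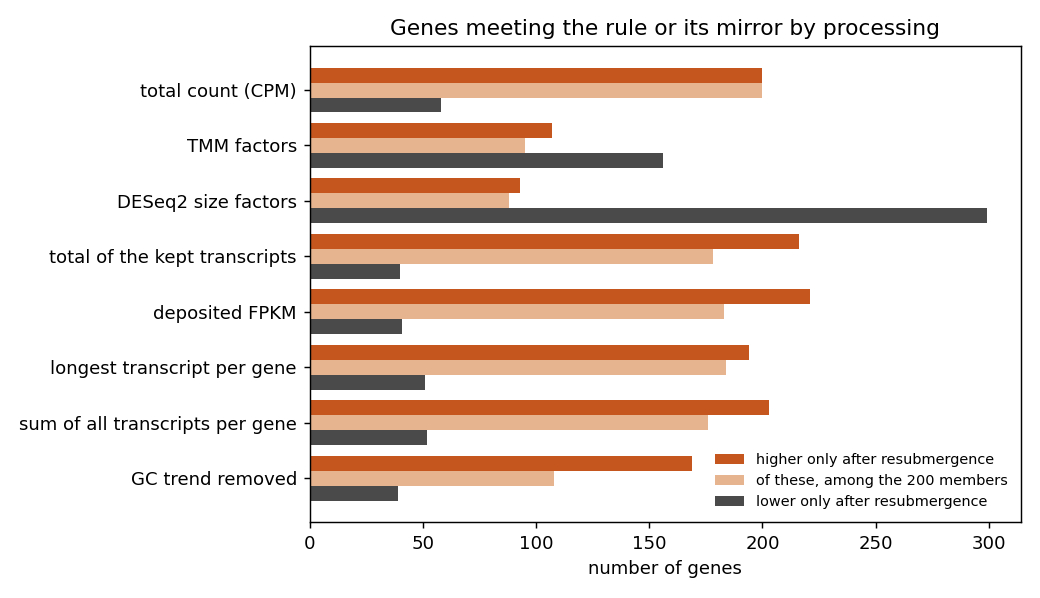
Number of genes (horizontal axis) that met the rule (orange), that also belong to the 200 members (light orange) and that met the mirrored rule (grey), by processing. Grey exceeds orange with TMM factors (156 against 107) and DESeq2 size factors (299 against 93), and orange exceeds grey in the other 6 settings.

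A smaller list of 43 members (21.5%) met the rule with total counts, TMM factors, DESeq2 size factors, the total of the kept transcripts, FPKM and the GC trend removed alike. It held 25 transcripts from 50 to 55% GC, 3 from 55 to 60% and 15 of 60% or more. In 23 of them the transcript was the only one of its gene. Transcripts c29288_g2_i1, c34174_g1_i1, c34557_g1_i4 and c33522_g2_i2 and all 5 transcripts of at least 15000 nt were among the 43. The median smallest ratio of the 43 was 2.37. Not among them were c33714_g1_i2, c24255_g1_i1, c34459_g3_i2, c32516_g1_i1, c33786_g1_i2, c29661_g1_i1, c27142_g1_i1, c29037_g1_i2 and c30614_g1_i1. These named members met the rule with total counts but missed it in another of these settings.

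Other transcripts of the same genes mostly showed the same pattern, but they can share reads with the transcript kept. Of the 200 genes, 121 had further transcripts, and 453 of these 538 transcripts reached 50 counts in the control and 35% GC. The rule was met by 292 of the 453, in 90 genes. All 6 ratios were above 1 in 392, and the smallest was under 1 in 61. The median smallest ratio of the 453 was 1.82, close to that of the members.

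At the edge of the rule the last gene kept was c30614_g1_i1 (5196 nt, 50.7% GC), whose smallest ratio was 1.5002, 7.502 CPM after resubmergence from 36 h against 5.001 CPM when dry. The first gene not kept was c34089_g3_i2 (4735 nt, 71.3% GC), at 1.4987, with 20.3 CPM after resubmergence from 36 h against 13.6 CPM in the control. The smallest ratio was under 1.6 in 37 members.

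The authors' deposited tables compare each desiccated library with its resubmerged one. At an unadjusted p-value under 0.05 the authors' deposited tables hold 27 members as higher after 24 h, 12 after 36 h and 39 after 72 h, beside 2.83%, 4.21% and 2.40% of all genes examined. At the authors' adjusted p-value under 0.05 these tables hold 1, 0 and 6 members, beside 0.0373%, 0.233% and 0.438%. The contrast is one the rule used, so nothing is read from these counts. For c29288_g2_i1 the authors' deposited tables give fold changes of 29.0 at 24 h (adjusted p 0.0199) and 78.7 at 72 h (adjusted p 3.06e-08). For c34174_g1_i1 and c33786_g1_i2 the authors' deposited table gives 17.96 and 25.3 at 72 h (adjusted p 3.03e-05 and 0.000712). The other 3 members in the authors' deposited table at 72 h had GC contents from 48.7% to 52.7%. Members under 55% GC had larger 72 h ratios to the desiccated library than those of 60% or more (median log2 2.33 and 1.09). The GC contents of all genes called there were not compared. In the authors' deposited tables of desiccation against the control no member had an unadjusted p-value under 0.05, a contrast that the dry window also used.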

How the data were processed

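RNA from thalli in 7 conditions, 1 library each, was sequenced. Per the labels' protocols a commercial kit for plant RNA and a TruSeq-type kit were used. Of tools, cutadapt, Bowtie2 and DESeq appear in the submitters' processing notes. The sources used here do not give the assembler or the counting program. The authors' expression table holds counts of reads and FPKM values per transcript and library, and length and GC content in percent, per the file headers. The counts sum to more than the totals that the deposited FPKM values imply, so a read may count on several isoforms. The authors' comparison tables list for each transcript, per the file headers, its fold ratio and its p-value before and after adjustment.

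Counts as deposited were divided by the total of the library and multiplied to CPM. Ratios have no pseudocount, and their intervals are Clopper-Pearson at 95%. Alternatives used edgeR 4.0.16 (TMM factors), DESeq2 1.42.0 (size factors), the total of the kept transcripts, FPKM, and a lowess curve of the log2 ratio on GC (fraction 0.3, statsmodels 0.14.6) taken from each library. The rule was checked on simulated data. Named members were the 2 with the largest smallest ratio, the 2 with the highest mean CPM after resubmergence, the 2 that stood out most in each resubmerged library, the 2 most even and those at the edge of the rule. Members and lists were chosen with earlier results of these data known, and the GC ranges, the group of 15000 nt or more and c32473_g3_i1 and c34683_g3_i1 within it after the values were seen. No test was run, because the rule used every library. Depth was 63782317 to 97270080 counts per library, and with 1 library per condition the spread between thalli is not known.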

Additional observations from a re-analysis of the deposited data

How the results depend on the processing

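No pairing by replicate was possible because each condition has 1 library, and the results come from no test. The 3 dry and resubmerged pairs could carry a comparison of state across periods, which was not made since the rule used all of them. Stricter thresholds lower the counts and fewer conditions raise them by construction; for the other scalings the cause was not tested. The genes meeting the rule (200) and the mirrored rule (58) became 107 and 156 with TMM factors, 93 and 299 with DESeq2 size factors, and 86 and 100 with TMM factors and the GC trend removed. They became 70 and 7 with a 2-fold threshold, 60 and 32 with a dry window from 1/1.5 to 1.5, 330 and 122 when the 24 h pair was left out, 356 and 96 for the 36 h pair, 535 and 601 for the 72 h pair, and 457 and 267 without the 72 h desiccated library. A control minimum of 200 counts gave 106 genes and one of 10 gave 366. Of the 200 members, 95 met the rule with TMM factors, 88 with DESeq2 size factors, 108 with the GC trend removed, 69 with both TMM and GC, 106 at 200 counts, 70 at 2-fold and 60 in the narrow window. The median GC of the genes meeting the rule (61.1%) became 63.5% with TMM factors, 52.4% with the GC trend removed, 64.4% at 200 counts, 54.8% at 10 counts, 57.1% at 2-fold and 52.2% with both TMM and GC.

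The genes from 50 to 55% GC (66) became 26 with TMM factors, 35 with DESeq2 size factors, 112 with the GC trend removed, 12 at 200 counts, 161 at 10 counts, 32 at 2-fold, 23 in the narrow window, 107 on leaving out the 36 h pair, 156 for the 72 h pair and 143 without the 72 h desiccated library. Those of 60% or more (110) became 73 with TMM factors, 51 with DESeq2 size factors, 30 with the GC trend removed, 34 at 2-fold, 29 in the narrow window and 10 with both TMM and GC. They became 193, 204 and 304 without the 24, 36 and 72 h pairs, 259 without the 72 h desiccated library and 166 without the library resubmerged after 36 h. Between resubmerged libraries, the members 2-fold lower after 36 h than after 24 h (6) became 12 with TMM and 13 with DESeq2 factors. Those higher after 72 h than after 24 h (12) became 6 and 7, and those lower (9) became 25 and 24. The counts by GC range under every setting, the settings that leave out 1 library and the joint TMM and GC setting were added after seeing the data.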
